A study of Mus musculus with 4 samples.

Results

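Piezo2, Tmem63a, Tmem63b, Tmem63c, Kcnk2, Kcnk10, Kcnk4, Tmc1 and Tmc2 form a chosen set of mouse genes for mechanically gated channels other than Piezo1. The set need not be complete. These genes were taken by gene name from the gene annotation deposited with a study of pressure sensing in macrophages, where they are 9 of 46078 genes and hold 1218 of 1500259 lines. The gene models below are the values described, and they are the same for every sample. Expression of the members in the libraries was not analysed here, so nothing below says which of these channels a macrophage makes, and the cell type label was not checked against marker genes.

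The study used C57/BL6 mice in which both Piezo1 alleles are floxed (Piezo1 fl/fl), that is, carry loxP sites at which Cre deletes the gene. Control animals had no Cre, and their cohoused littermates carried LysM Cre, a recombinase driven by a lysozyme promoter that is active in macrophages and other myeloid cells. Bone marrow-derived macrophages, which were grown from marrow in 50 ng/ml M-CSF, spent 6 h in a pressure chamber at static pressure or under cyclic pressure with an amplitude of about 15 mmHg. Polyadenylated RNA gave 1 library for each of the 4 combinations of genotype and pressure, with paired reads of 75 bases. Neither the number of animals behind a library nor their age is stated in the labels.

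Mechanically gated channels turn tension in the membrane, or pull on a tether, into ion flow. Piezo2 is a large cation channel of touch and position sense in sensory neurons. Tmem63a, Tmem63b and Tmem63c are the animal relatives of the plant OSCA channels. Kcnk2 (TREK-1), Kcnk10 (TREK-2) and Kcnk4 (TRAAK) are potassium leak channels with tandem pore loops that stretch, heat and lipids open. Tmc1 and Tmc2 form the pore of the transduction complex at the tips of hair cell stereocilia in the inner ear. In all of them the protein that reaches the membrane depends on which exons are joined: a coding exon whose length is a multiple of 3 can be left out with the reading frame kept, and any other length shifts the frame.

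The 9 genes had 46 annotated transcripts, of which 32 were protein-coding, 4 were marked as targets of nonsense-mediated decay (NMD, the pathway that destroys RNA with an early stop codon), 6 retained an intron and 4 were processed transcripts with no coding sequence. Of the 32 protein-coding transcripts, 19 had both a start and a stop codon, 11 lacked the stop codon and 2 lacked the start codon. Kcnk10, Kcnk4 and Tmc1 were annotated with 1 transcript each, so no exon of theirs could count as skipped. The other 6 genes had between 2 and 6 protein-coding transcripts. The leading transcript of each gene was taken as the protein-coding one with the longest coding sequence, and exons are numbered along it. All 9 leading transcripts had a transcript support level of 1, the best grade of the scale on which the annotation ranks the RNA evidence for each transcript, with 5 the weakest.

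The sequences of 2 skipped exons carry the difference between a change within the protein and a change of frame. In Tmem63b, exon 4 has 39 bases and follows 2 bases of a codon that exon 3 leaves unfinished. The first line below runs from the last 20 bases of exon 3 through exon 4, in capitals, into the first 20 bases of exon 5. The second joins exon 3 directly to exon 5, with the codon made at the new junction in capitals. Both were read on the minus strand of GRCm38 between the outer positions chr17:45677997-45679256.
Tmem63b with exon 4: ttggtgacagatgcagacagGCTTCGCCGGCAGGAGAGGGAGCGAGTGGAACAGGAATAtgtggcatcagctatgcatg
Tmem63b without exon 4: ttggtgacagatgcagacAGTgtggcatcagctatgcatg

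In Kcnk2, exon 5 has 187 bases, which is 1 more than a multiple of 3. Transcript Kcnk2-006 leaves it out. The line below gives the last 18 bases of exon 4 followed by exon 6 up to the stop codon, in capitals, that the shifted frame meets, from the minus strand between the outer positions chr1:189242937-189258755.
Kcnk2-006 junction: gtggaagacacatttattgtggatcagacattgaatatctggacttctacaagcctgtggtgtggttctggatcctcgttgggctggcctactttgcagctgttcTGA

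Exon 5 of Kcnk2 is shown beside its counterparts because it is the internal coding exon that kept its length in all 3 Kcnk members with the most identical bases. It carries codons of the second pore loop, where the selectivity filter for potassium lies. Capitals mark the 98 of 187 bases (52.4%) that are the same in the 3 genes, at chr1:189256568-189256754, chr12:98440592-98440778 and chr19:6927618-6927804, all on the minus strand.
Kcnk2 exon 5: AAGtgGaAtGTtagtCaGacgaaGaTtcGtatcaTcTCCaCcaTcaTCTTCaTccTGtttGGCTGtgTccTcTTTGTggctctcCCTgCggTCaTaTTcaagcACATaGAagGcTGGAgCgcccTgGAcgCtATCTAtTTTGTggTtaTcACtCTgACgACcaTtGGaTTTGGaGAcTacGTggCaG
Kcnk10 exon 5: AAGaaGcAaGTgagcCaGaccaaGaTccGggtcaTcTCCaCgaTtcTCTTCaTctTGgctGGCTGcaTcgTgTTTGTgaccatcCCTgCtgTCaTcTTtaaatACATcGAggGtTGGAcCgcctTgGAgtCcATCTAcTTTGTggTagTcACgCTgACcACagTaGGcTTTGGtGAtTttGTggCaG
Kcnk4 exon 5: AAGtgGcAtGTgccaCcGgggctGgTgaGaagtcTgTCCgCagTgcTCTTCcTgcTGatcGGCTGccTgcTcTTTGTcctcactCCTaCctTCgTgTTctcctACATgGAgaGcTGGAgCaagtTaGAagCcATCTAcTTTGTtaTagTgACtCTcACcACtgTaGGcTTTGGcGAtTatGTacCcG

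Coding exons that some protein-coding transcripts skipped were found in 3 of the 6 members that could show one, namely Piezo2, Tmem63b and Kcnk2, with 1 exon each. Over all 10973 genes with at least 2 protein-coding transcripts, 36.8% held such an exon. Exons counted only where the skipping intron began and ended at splice sites of the transcript that kept the exon. The reading frame was kept by 2 of the 3, against 75.8% of the 7488 skipped exons, or runs of exons skipped together, of all genes. With so few members these counts describe the genes and are not set apart from the background.

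The Piezo2 exon is exon 18, at chr18:63099053-63099094 on the minus strand. It has 42 bases, or 14 codons' worth, and it too starts after 2 bases of a codon. It was kept by 2 protein-coding transcripts and skipped by Piezo2-005, which has a support level of 5, 4797 coding bases and no stop codon line, so its 3′ end is unknown. Piezo1, the closest relative, had 51 coding exons where Piezo2 had 54, and 25 of them matched a Piezo2 exon in length and order. Between a 149-base exon and a 161-base exon that both genes have, Piezo2 has exons of 174, 42 and 215 coding bases and Piezo1 has exons of 183 and 113. Judged by exon lengths and order, Piezo1 thus had no separate exon at the place of the skipped one. From the 161-base exon on, 5 exons in a row had equal lengths in the 2 genes. None of the coding exons of Piezo1 was skipped by its other protein-coding transcript. The leading Piezo1 transcript has a support level of 5, and only 1 of the 2 protein-coding transcripts has both a start and a stop codon. An incomplete transcript can show skipping only over the part it covers.

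The Tmem63b exon is exon 4, at chr17:45678963-45679001. It was an internal exon of 3 protein-coding transcripts and the last exon of another, Tmem63b-004, and it was skipped by 2, Tmem63b-009 with a support level of 3 and Tmem63b-006 with a support level of 5, and neither of these has a stop codon line. Leaving it out removes 13 codons' worth of bases and makes the codon AGT at the junction, as the second Tmem63b line above shows. The rest of the frame is unchanged. Tmem63a and Tmem63c had no exon there: their 80-base exon was followed directly by an exon of 64 and 82 bases, which corresponds to the 91-base exon 5 of Tmem63b, and then by the 38-base exon that all 3 genes share. The 39 and 42 bases of the Tmem63b and Piezo2 exons are shorter than a sequencing read of 75 bases, so a read that covers either exon whole reaches into a neighbour. Of the 180 coding exons of the members, 31 were under 75 bases, beside 17.2% over all coding exons.

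Kcnk2 exon 5 was kept by 5 protein-coding transcripts and skipped by Kcnk2-006, which has both a start and a stop codon and a support level of 5. Its reading frame ends after 237 codons, against 426 in the leading transcript. The stop codon ends 90 bases into the 140-base exon 6 and 50 bases before the last exon junction. The sequence removed is the one whose conserved bases are printed above, and every codon after it is read in another frame. Kcnk2-006 is annotated as protein-coding and not as an NMD target.

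**Figure D1:**
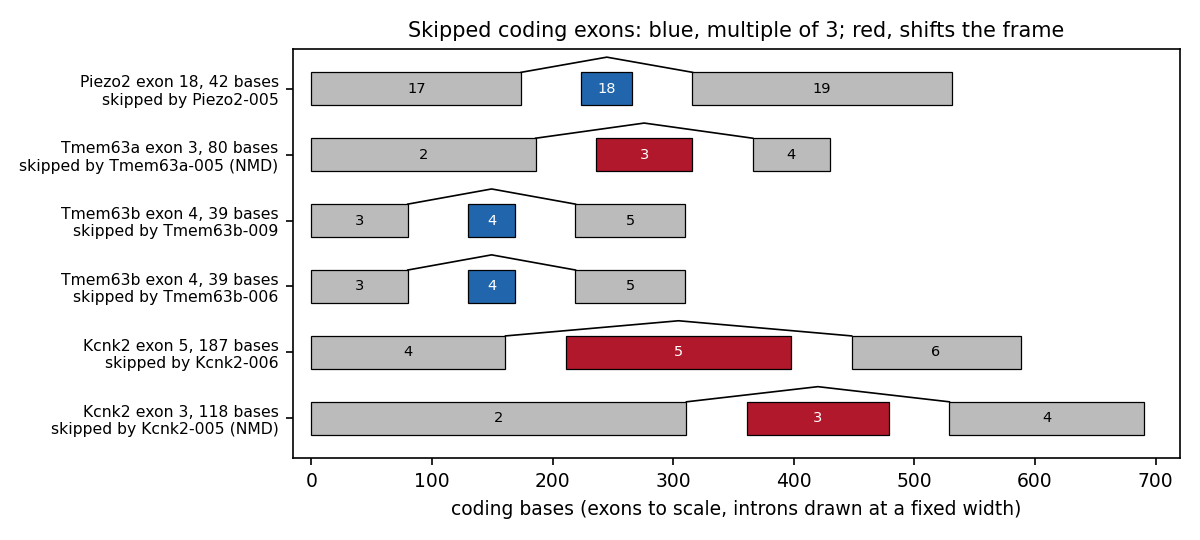
The skipped coding exon (coloured) between its neighbours (grey), labelled with exon numbers, for each transcript that skips one; widths are coding bases and introns have a fixed width. The 42-base exon of Piezo2 and the 39-base exon of Tmem63b are multiples of 3 (blue), and the 187-base and 118-base exons of Kcnk2 and the 80-base exon of Tmem63a are not (red).

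Transcripts marked for NMD added a skipped exon in Tmem63a and another in Kcnk2, giving 5 exons in 4 members when a transcript of any biotype may skip. With that rule 39.6% of 13509 genes held a skipped coding exon and 57.7% of the skipped runs kept the frame, compared with 2 of 5 among the members. Tmem63a-005, with a support level of 3, leaves out the 80-base exon 3, and the first 3 bases of exon 4 are then a stop codon after 62 codons. Kcnk2-005, with a support level of 1, leaves out the 118-base exon 3 and meets a stop codon that ends 114 bases into exon 4, after 152 codons. The lines below give the last 18 bases of exon 2 joined to exon 4 up to that stop, in capitals, for Tmem63a on the plus strand between the outer positions chr1:180946748-180952134 and for Kcnk2 on the minus strand between chr1:189258785-189339802.
Tmem63a-005 junction: gatgtcagttgctttctgTGA
Kcnk2-005 junction: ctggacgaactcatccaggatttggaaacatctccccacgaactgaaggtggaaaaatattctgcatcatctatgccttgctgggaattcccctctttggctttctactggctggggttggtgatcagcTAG

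The remaining early stops came from altered exon ends and alternative last exons, not from skipping. Piezo2-201 and Piezo2-007 end in a last exon inside intron 14, where the stop codon ends 53 bases in, and Piezo2-201 has 644 codons in place of 2824. Piezo2-008 ends in another last exon, inside intron 26. Piezo2-201, Piezo2-007 and Piezo2-008 each have a support level of 5. In the NMD transcript Piezo2-004, exon 50 is 97 bases long and not 173. In the NMD transcript Tmem63c-003, an exon of 53 bases replaces the 49-base exon 8, and the frame ends after 179 codons against 802.

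The 3 Kcnk members had no internal coding exon that could be left out alone with the frame kept. Of 14 such exons 0 were a multiple of 3, namely 0 of 5 in Kcnk2, 0 of 5 in Kcnk10 and 0 of 4 in Kcnk4. This did not hold for every other Kcnk gene. Kcnk1, Kcnk6, Kcnk7 and Kcnk18 have 1 internal coding exon each, and it is a multiple of 3. In Kcnk5 and Kcnk16 0 of 3 are, and the rest have no internal coding exon. Over all genes 40.8% of 157936 internal coding exons were a multiple of 3. The share was 21 of 52 in Piezo2, 19 of 61 in the Tmem63 genes and 17 of 35 in Tmc1 and Tmc2, 57 of 162 in all members. In the Kcnk members the junctions alternate between whole codons and codons split after the first base. Any pair of neighbouring internal exons then adds up to a multiple of 3, which held for 4 of 4 pairs in Kcnk2, 4 of 4 in Kcnk10 and 3 of 3 in Kcnk4. In Piezo2 12 of 51 such pairs did, in Tmem63a 7 of 19, and in Tmc1 6 of 17. The deposited annotation shows no transcript of a Kcnk member that skips such a pair. Only Kcnk2 could show one there, since Kcnk10 and Kcnk4 have 1 transcript each.

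A second annotation of the same build, GENCODE M21, described more of Piezo2 and nothing new in Tmem63b. All 9 members had at least 2 protein-coding transcripts there, and the same 3 of them (33.3%) held a skipped coding exon. These exons numbered 8, with 6 in Piezo2, and 9 of 10 skipped runs kept the frame. Of the 14193 genes with at least 2 protein-coding transcripts in that annotation 36.1% held a skipped coding exon, and 74.3% of their 9583 skipped runs kept the frame. Exon 18 of Piezo2 was skipped there by 2 protein-coding transcripts. One of these has the identifier of Piezo2-005 and is extended to 2753 codons. Piezo2-008 is one of the 2 transcripts that keep exon 18 in the deposited annotation. Under its identifier, GENCODE M21 has a processed transcript that skips the exon. The other Piezo2 exons skipped there were exon 9 (120 bases), exon 10 (39 bases), exon 38 (168 bases), exon 48 (189 bases) and a 33-base exon that the deposited annotation does not have. Among protein-coding transcripts, exons 9 and 10 were skipped only by fragments of 375 and 229 codons that have neither a start nor a stop codon. The skipped runs that hold these exons rest on such fragments. The fragment of 375 codons has the identifier of the deposited Piezo2-201, which has 644 codons with a start and a stop codon. In that annotation Kcnk4 also has an NMD transcript, which leaves out its 127-base exon 3 and ends after 67 codons. That exon takes the same place as the 118-base exon 3 of Kcnk2 which Kcnk2-005 leaves out, and both lengths are 1 more than a multiple of 3.

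Coding exons numbered 54 in Piezo2, 22 in Tmem63a, 23 in Tmem63b, 22 in Tmem63c, 7 in Kcnk2, 7 in Kcnk10, 6 in Kcnk4, 20 in Tmc1 and 19 in Tmc2. The median over the members was 20, and over all 22111 genes with a protein-coding transcript it was 6. Kcnk4 was the only member not above that median. Piezo2 had 8472 coding bases, or 2824 codons without the stop, and 0.778% of all genes had a coding sequence at least as long. The Tmem63 genes were nearly the same size, with 804, 832 and 802 codons. Kcnk2, Kcnk10 and Kcnk4 had 426, 535 and 398 codons, and Tmc1 and Tmc2 had 757 and 888.

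Coding exon lengths were shared to different degrees within the families. In the Tmem63 genes 13 of 22 coding exons had the same length in all 3 genes when exons were paired from the 3′ end with exon 4 of Tmem63b left out. The other 9 differed by a multiple of 3, from 3 to 42 bases, so all 22 paired exons left the same remainder and began at the same position within a codon. Tmem63a and Tmem63b were closest, with 17 exons of equal length, while Tmem63c shared 13 with Tmem63a and 14 with Tmem63b. This pairing was set up after the exon lengths had been seen.

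Tmc1 and Tmc2 shared 11 of 19 exon lengths, and 18 of 19 pairs had the same remainder. The exception was at the 5′ end, where Tmc1 begins with coding exons of 4 and 48 bases and Tmc2 with 1 of 34. Their last coding exons differed most, with 23 bases in Tmc1 and 218 in Tmc2. Kcnk2 and Kcnk10 had 7 coding exons each, of which 3 were equal in length (118, 161 and 187 bases) and all 7 had the same remainder. Kcnk4 lacked the short first coding exon, and its last 5 coding exons had the same remainders as those of Kcnk2 and Kcnk10. The last coding exon, which encodes the end of the cytoplasmic tail of these channels, varied most, at 318 bases in Kcnk2, 621 in Kcnk10 and 393 in Kcnk4.

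Paired from the 3′ end in the same way, the 29 pairs of members from different families had the same remainder in 0 to 36.8% of exons, with a median of 28.6%. The 7 pairs of members from one family ranged from 83.3 to 100%. Counted as equal lengths in the same order, the 7 member pairs from one family shared between 33.3 and 77.3% of the exons of the gene with fewer (median 57.9%), and the pairs of members from different families between 0 and 28.6% (median 14.3%). In equal lengths, this contrast did not extend to most other genes of the Kcnk and Tmc families. Kcnk2, Kcnk10 and Kcnk4 shared 0% of exon lengths with each of the 11 other Kcnk genes, which have only 2 to 5 coding exons. Tmc1 and Tmc2 shared 5.26 to 15.8% with the other Tmc genes except Tmc3, with which they shared 40.0 and 47.4%. Piezo2 shared 49.0% with Piezo1. Remainders were not compared with genes outside the set. These pairs share genes and are a description.

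**Figure D2:**
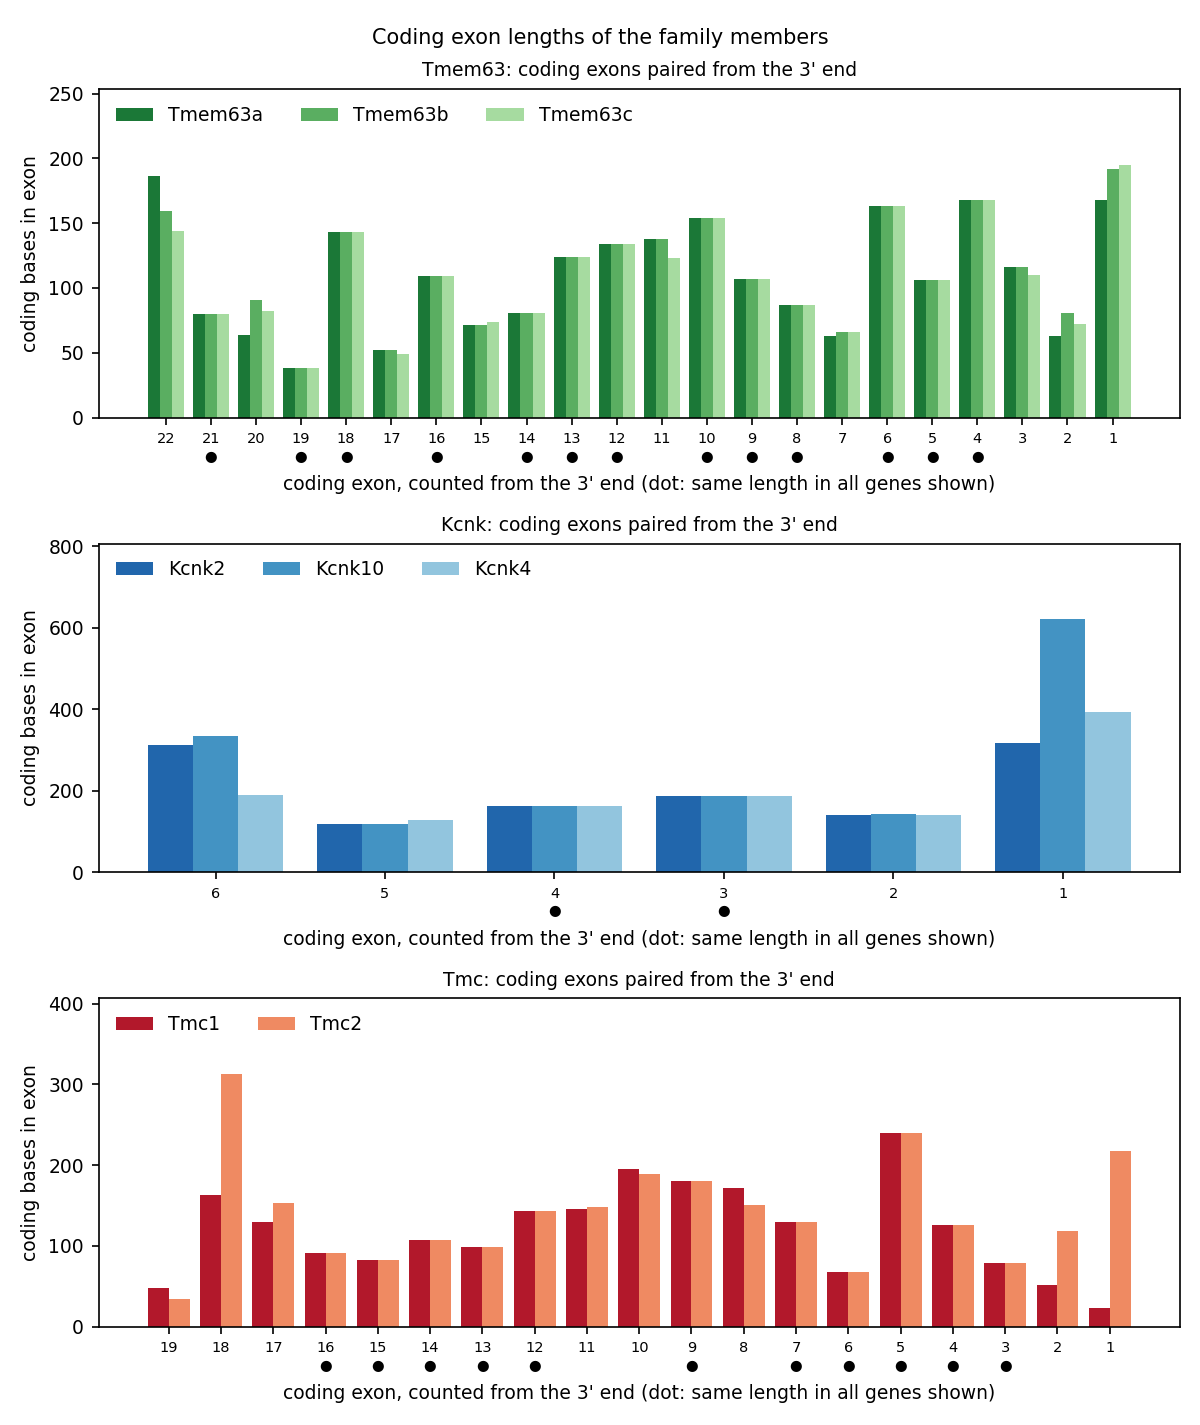
Coding bases per exon of the leading transcripts, stop codon included, paired from the 3′ end within the Tmem63, Kcnk and Tmc families; exon 4 of Tmem63b and the unpaired first coding exons of Kcnk2, Kcnk10 and Tmc1 are left out, and a dot marks exons of one length in all genes shown. Of 22 Tmem63 exons 13 have a dot, of 6 Kcnk exons 2, and of 19 Tmc exons 11.

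In the Tmem63 genes, base identity in the exons of equal length followed the same order. Over 1494 bases in 13 exons, Tmem63a and Tmem63b were identical at 68.5% of positions, Tmem63b and Tmem63c at 60.0%, and Tmem63a and Tmem63c at 58.1%. Tmc1 and Tmc2 were identical at 67.8% of 1344 bases in 11 exons. In the exons of 161 and 187 bases, Kcnk2 and Kcnk10 were identical at 71.3% of positions, Kcnk10 and Kcnk4 at 59.5%, and Kcnk2 and Kcnk4 at 58.6%. Single exons of the Tmc pair ranged from 55.6% in the exon of 99 bases to 76.5% in that of 68 bases. In the Tmem63 family, bases identical in all 3 genes ranged from 27.4% in the 124-base exon to 63.2% in the 106-base exon.

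The exon with the highest percentage of bases identical in all members is shown for both families, with the identical bases in capitals. In Tmem63 it is the 106-base exon, at chr1:180970180-180970285 (plus strand), chr17:45662863-45662968 (minus strand) and chr12:87082199-87082304 (plus strand). In Tmc it is the 68-base exon, at chr19:20804599-20804666 (minus strand) and chr2:130247915-130247982 (plus strand). Of the positions in a codon, the last differed most often in every pair: 251 of 470 (53.4%) did so between Tmem63a and Tmem63b, 248 of 433 (57.3%) between Tmc1 and Tmc2, and 65 of 100 (65.0%) between Kcnk2 and Kcnk10, counted over the exons of one length in the family. Within the Kcnk family the share was lower in the other pairs, at 55.6% for Kcnk2 and Kcnk4 and 49.6% for Kcnk10 and Kcnk4. So it was within the Tmem63 family, at 44.6% for Tmem63b and Tmem63c and 43.8% for Tmem63a and Tmem63c.
Tmem63a exon 19: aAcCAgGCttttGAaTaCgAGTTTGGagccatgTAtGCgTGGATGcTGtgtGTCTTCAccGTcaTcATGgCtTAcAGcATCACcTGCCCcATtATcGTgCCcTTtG
Tmem63b exon 20: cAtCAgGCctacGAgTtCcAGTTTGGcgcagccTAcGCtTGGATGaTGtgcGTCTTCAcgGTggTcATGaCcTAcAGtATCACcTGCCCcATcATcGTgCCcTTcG
Tmem63c exon 20: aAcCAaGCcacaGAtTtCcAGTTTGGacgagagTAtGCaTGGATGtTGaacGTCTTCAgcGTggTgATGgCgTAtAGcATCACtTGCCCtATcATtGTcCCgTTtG
Tmc1 exon 16: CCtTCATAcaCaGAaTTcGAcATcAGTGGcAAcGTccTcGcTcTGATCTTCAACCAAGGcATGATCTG
Tmc2 exon 15: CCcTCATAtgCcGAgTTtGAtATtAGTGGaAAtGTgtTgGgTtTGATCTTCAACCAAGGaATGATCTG

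Among relatives outside the set, the other Tmc genes ranged from 15 coding exons, as in Tmc4, to 23 in Tmc3. The other Kcnk genes had fewer coding exons than the members, from 2, as in Kcnk12, to 5, as in Kcnk5, with a median of 3 over 11 genes. Skipped coding exons were annotated in 1 of the 5 other Tmc genes and in 0 of the 2 other Kcnk genes with at least 2 protein-coding transcripts.

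Protein-coding transcripts began in first exons that share no base in all 6 members with at least 2 of them, beside 60.4% of 10973 genes. This held for 5 of 6 without transcripts tagged as lacking their true start (background 49.7%), and for 4 of 5 when both start and stop codon were required (background 45.6%). Piezo2 dropped out of both counts: its extra first exons, of 6 and 7 bases, belong to the fragments Piezo2-007 and Piezo2-008, and its other transcripts share 1 start codon. Tmem63b dropped out of the last, since only 1 of its transcripts is complete. Tmc2 stayed in every count through Tmc2-201, which is not tagged as lacking its start. The first exon of Tmc2-201 lies within exon 2 of the leading Tmc2 transcript.

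Among the 6 members with at least 2 protein-coding transcripts, 1, Kcnk2, had more than 1 start codon position, with 4, beside 32.9% of the 10973 genes with at least 2. The transcripts that carry them start at positions spread over 58863 bases of gene, and each joins its 5′ exons to the same exon 2. They are shown because the annotated N terminus of TREK-1 differs only here. Each line runs from the start codon, in capitals, to base 12 of exon 2, on the minus strand, with the outer positions chr1:189340084-189402146, chr1:189340084-189344000, chr1:189340084-189343301 and chr1:189340084-189343088 in turn, and chr12:98518821-98577828 for Kcnk10.
Kcnk2-004 start: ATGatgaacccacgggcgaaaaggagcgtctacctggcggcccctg
Kcnk2-003 start: ATGggtgcagtggcggcccctg
Kcnk2-002 start: ATGgcggcccctg
Kcnk2-001 start: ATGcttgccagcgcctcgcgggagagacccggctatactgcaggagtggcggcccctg
Kcnk10-201 start: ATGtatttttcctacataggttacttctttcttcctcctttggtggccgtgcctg

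The coding bases before exon 2 number 34 in Kcnk2-004, 10 in Kcnk2-003, 1 in Kcnk2-002 and 46 in Kcnk2-001. All 4 leave a remainder of 1 and so enter exon 2 in the same frame, and the proteins have 422, 414, 411 and 426 codons. Kcnk10 has 43 coding bases there, again with a remainder of 1. In Kcnk2-002 only the A of the start codon lies in the first exon, and the rest of the codon is at the start of exon 2. Kcnk2-201 uses the same split start codon behind a separate non-coding first exon. Support levels were 1 for Kcnk2-001, Kcnk2-002 and Kcnk2-003, and 5 for Kcnk2-004, Kcnk2-006 and Kcnk2-201.

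RefSeq, on GRCm38.p6, gives 4 start sites for Kcnk2, which lie 55, 0, 0 and 2 bases from the nearest protein-coding start of the deposited annotation. The 250 bases upstream of them hold 5, 2, 27 and 28 CG dinucleotides, counted on 1 strand since CG reads the same on both. Over 32851 promoters in that table the median was 6. At least 5 were found in 55.6% of them, at least 2 in 81.2%, at least 27 in 8.56% and at least 28 in 7.61%. Tmem63b, with 31, had the most of the 12 member promoters in the table, and Tmc1, with 1, the fewest.

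In the Tmem63 genes the alternative first exons are non-coding, and all transcripts of a gene use 1 start codon. Starts spread over 3618 bases in Tmem63a, 6282 in Tmem63b and 12147 in Tmem63c, and fell into 4, 3 and 3 groups of first exons. The start codon lies in exon 2 of the leading transcript in Tmem63a and Tmem63b and in exon 3 in Tmem63c. Tmc2 has a pair of starts 1349 bases apart, the second of which, that of Tmc2-201, begins exactly at the start codon and so has no 5′ untranslated base. Its first exon is the last 34 bases of the 154-base exon 2 of Tmc2-001. Its last exon has 218 bases, all coding, so this model holds no untranslated base at either end.

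**Figure D3:**
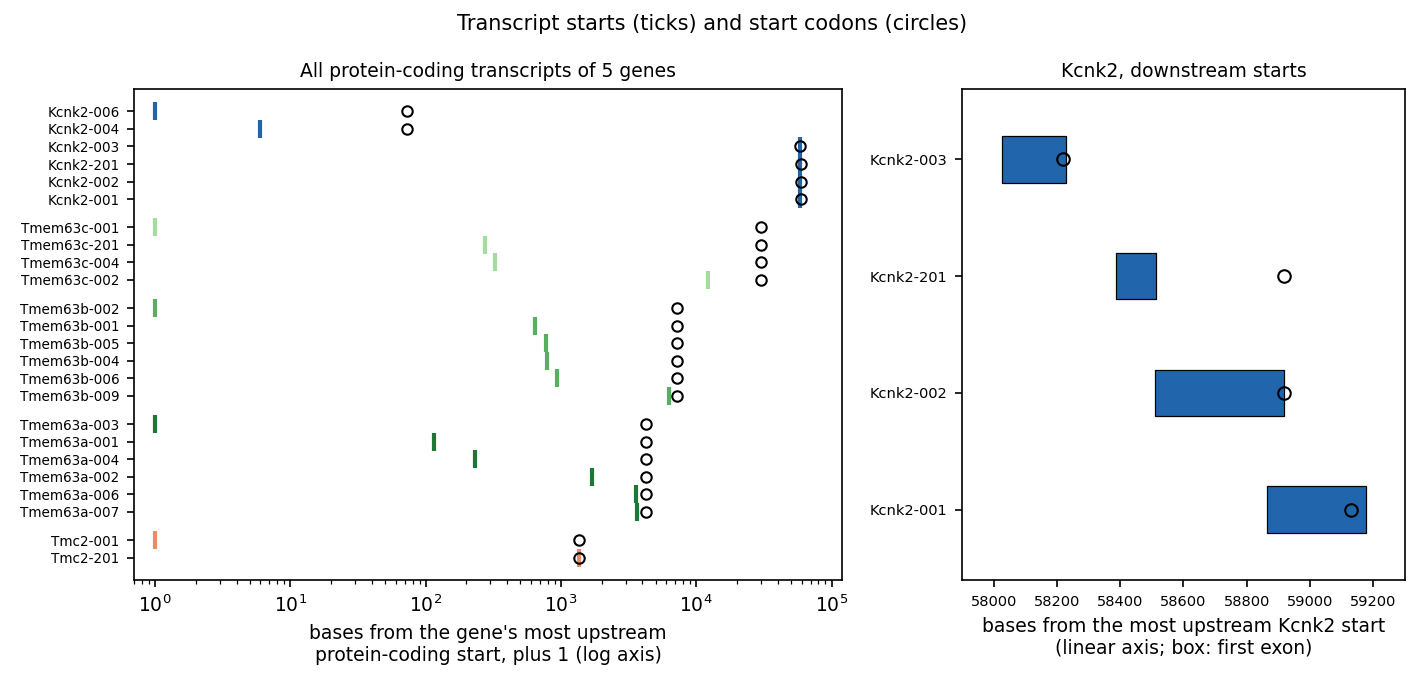
Left, protein-coding transcript starts (ticks) and start codons (circles) of 5 members in bases from the most upstream start, plus 1, on a log axis; right, first exons (boxes) of the downstream Kcnk2 starts on a linear axis. Each Tmem63 gene and Tmc2 has 1 start codon position for all its transcripts, and Kcnk2 has 4.

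Intron length differed within families. Kcnk2 had a median intron of 23160 bases over 6 introns and Kcnk10 of 14157 over 6. Of the protein-coding genes with an intron, 2.09% and 3.90% had a median at least as long. Kcnk4, also with 6 introns, had a median of 551 bases, and 80.2% of genes with an intron were at or above it. The whole Kcnk4 gene spans 8806 bases, against 194344 for Kcnk2 and 143947 for Kcnk10. Median introns were 5502 bases in Tmc1, 2791 in Tmc2, 2278 in Piezo2, 1280 in Tmem63c, 1103.5 in Tmem63a and 502 in Tmem63b. Over all protein-coding genes with an intron the median of such medians was 1489.5.

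Introns at the same place in a family differed widely. Between the exons of 161 and 187 bases the intron had 1983 bases in Kcnk2, 49126 in Kcnk10 and 189 in Kcnk4, so the longest was 260-fold the shortest. At 7 places in the Tmem63 genes where the exons on both sides have 1 length in all 3 genes, the longest intron was 3.48- to 19.3-fold the shortest (median 5.20). At 8 such places in Tmc1 and Tmc2 the ratio was 1.25 to 25.8 (median 4.56), and the longer intron was in Tmc1 at 5 and in Tmc2 at 3. The largest ratio was at the intron between the exons of 82 and 107 bases, with 9229 bases in Tmc1 and 358 in Tmc2.

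In the leading transcripts the longest intron was the first in 4 of 9 members, Tmem63a, Tmem63b, Tmem63c and Kcnk10. The share was 40.7% of 17880 genes with at least 2 introns. This place depends on the transcript chosen. Kcnk2-004 joins a first exon that ends at chr1:189402113 to exon 2, which begins at chr1:189340095. That first intron is longer than any in the leading Kcnk2 transcript, where the longest, of 44073 bases, is the second. First introns had 4006, 6402, 26235 and 58953 bases in Tmem63a, Tmem63b, Tmem63c and Kcnk10. In Piezo2 the longest, of 80870 bases, was the second, after a first intron of 59543. In Tmc1 and Tmc2 the longest was the fifth, with 30297 and 11138 bases. Of the 178 introns of the members, 20 were over 10000 bases, 7 of them among the 18 introns of the Kcnk genes, and 57 were under 1000, of which 38 were in the Tmem63 genes. Over all genes 8.71% of introns exceeded 10000 bases and 42.3% were under 1000.

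**Figure D4:**
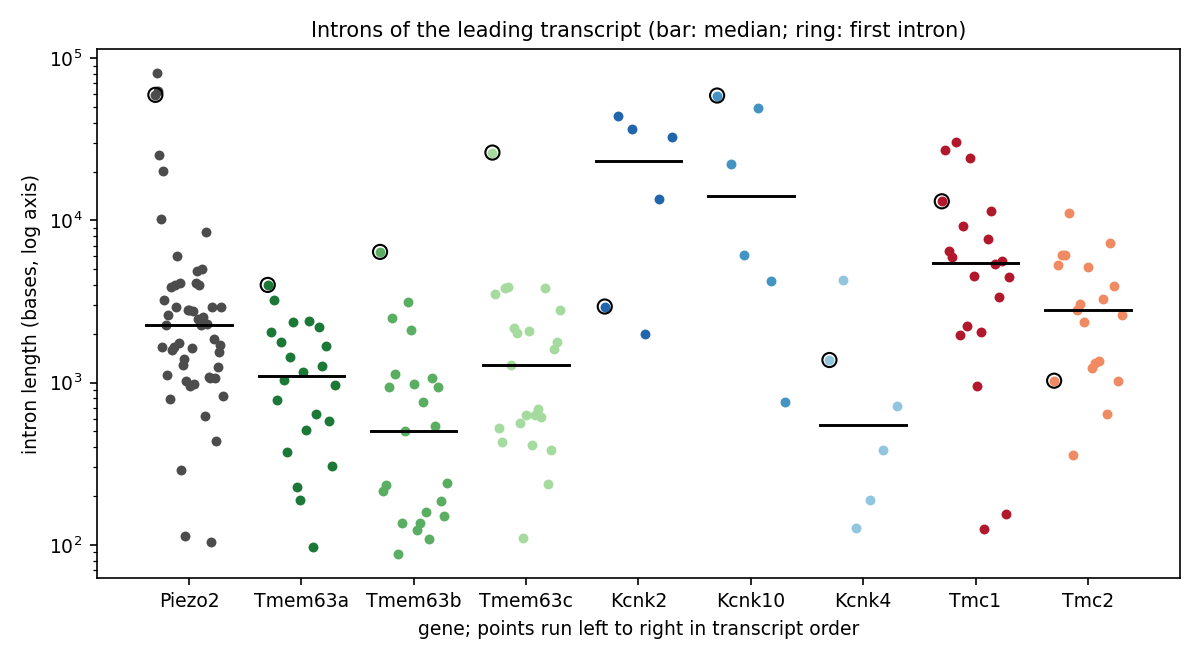
Intron lengths of the leading transcript of each member in bases on a log axis, left to right in transcript order, with the median as a bar and the first intron ringed. Kcnk2 and Kcnk10 have medians of 23160 and 14157 bases, and Kcnk4, with the same number of introns, 551.

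Other annotated genes share exon bases with 3 members, all on the opposite strand, so reads counted without strand could not be told apart there. The antisense gene 2210411M09Rik shares 157 bases with Tmem63a, which is 3.50% of the bases in its exons, and all 157 are coding in the leading transcript. For Tmem63b, Gm16172 shares 288 bases (5.65%), all coding, and Mrpl14, a mitochondrial ribosomal protein gene, shares 106 (2.08%), none coding. A430027H14Rik shares 604 bases (12.2%) with Kcnk2, none of them coding in the leading transcript. They take in the whole 202-base first exon of Kcnk2-003, with its start codon and 10 coding bases. Piezo2, Tmem63c, Kcnk10, Kcnk4, Tmc1 and Tmc2 shared no exon base with another gene.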

How the data were processed

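The deposited file is a gene annotation with 1-based starts and ends on GRCm38 and holds 0 columns of library values, so no depth, error or p-value is given. No source used here gives its release. The processing notes of the submitters name CASAVA 1.8, FastQC, TopHat2, Bowtie2 and Cufflinks. Exon, coding, start and stop codon lines were read with Python 3.11.15 and numpy 2.4.6, and figures were drawn with matplotlib 3.10.9. The counts of skipped exons, frames and first exons were tested on simulated gene models, where 200 of 200 genes, 159 of 159 frames and 200 of 200 first-exon counts were recovered. Exon sequences came from GENCODE M21 transcripts, whose exons cover all 187 exons of the leading transcripts at the same coordinates, and promoters from RefSeq (GRCm38.p6). Proteins were not used here, so exon lengths were set side by side in place of a protein alignment. Counts of per-exon coding bases include the stop codon, and counts of codons do not. All 9 members are named, and the related genes follow a fixed list. The members and lists were chosen with earlier results of these data known.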

Additional observations from a re-analysis of the deposited data

How the results depend on the processing

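The count of skipped coding exons, 3, became 5 when transcripts of any biotype could skip, 1 when only transcripts with a start and a stop codon were used and 8 in GENCODE M21. The frame-keeping count, 2, which counts runs of exons skipped together once, became 0 with complete transcripts only, since the transcripts that skip the Piezo2 and Tmem63b exons lack a stop codon, and 9 of 10 skipped runs in GENCODE M21, where an exon can belong to more than 1 run. The median over members of the median intron, 2278 bases, was 2271.5 over all distinct introns of the protein-coding transcripts. Counting any exon that lies within an intron of another transcript gave 4 skipped exons. Members with separate first exons numbered between 4 and 9 over the alternatives. Exons of a shared length numbered 26 over the families, and 33 when lengths within 6 bases with the same remainder counted, an alternative chosen after seeing the data, as was leaving out transcripts tagged as lacking their start. Comparison by aligned residues was not run. No paired analysis was possible because the annotation holds no library values and there is 1 library per group. A transcript that is not annotated cannot be counted, so these counts describe what was annotated and not what cells make.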
